A study of Danio rerio with 12 samples.

Results

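The genes clu, mdka and tgm2b were followed in the ventricle apex of adult zebrafish hearts over 6 groups of arrays. They were chosen by gene symbol, for their rise in control hearts 7 days after amputation, and each is represented by 1 probe set. They are 3 of the 8793 genes measured, on 15502 probe sets tested. Because the control arrays at 7 days and without amputation chose them, the rise in controls is given below as a description only.

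The study asked how 2,3,7,8-tetrachlorodibenzo-p-dioxin (TCDD, a persistent ligand of the aryl hydrocarbon receptor) alters the response of the heart to loss of ventricle tissue. Adult AB fish received TCDD at 70 ng/g by intraperitoneal injection, or vehicle, 1 day before amputation. Each treatment was sampled without amputation (0 hpa), at 6 hours (6 hpa) and at 7 days after amputation (7 dpa), with 2 arrays in each of the 6 groups. The treatment label of the control arrays reads "none", whereas the protocol names a vehicle injection. Every array carried RNA pooled from the apex, with the regenerate and the amputation plane, of 10 hearts. No single fish can therefore be followed, p-values measure the spread between pools, and fewer cells of a type and less RNA per cell cannot be told apart.

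The zebrafish ventricle regrows after its apex is removed, and the epicardium, the cell layer that covers the heart, is activated by the injury and gives rise to cells and signals in the wound. Clusterin, the product of clu, is a secreted chaperone that binds misfolded proteins and also restrains the terminal complement complex, as known from mammals. Midkine, the product of mdka, is a heparin-binding growth factor that acts through receptors such as syndecans, integrins and LDL receptor-related proteins. Transglutaminase 2, for which tgm2b is one of the zebrafish genes, is known from mammals to cross-link proteins of the extracellular matrix and to bind fibronectin and integrins.

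Array medians lay between 3.26 and 3.53 on the log2 scale. Replicate arrays correlated at 0.958 to 0.979 within 5 groups and at 0.901 within TCDD 6 hpa, where replicate 1 stood apart: 461 probe sets were lower there than on every other array by over 1 log2 unit, and 202 were higher by as much. The difference between 3′ and 5′ actin probe sets, a sign of RNA quality, was 3.35 on that array and -0.08 to 2.07 on the others. The mean of the DapX spike-in probe sets was 4.58 to 5.69 on the 4 arrays at 7 dpa and 2.85 to 3.48 on the other 8, so time and any separate processing of those arrays cannot be told apart. The labelled tissue was checked on its defining genes: all 11 measured cardiomyocyte markers lay above the array median on every array. The label TCDD was checked on cyp1a, the classic target of the aryl hydrocarbon receptor, which was 8.33 log2 units higher in TCDD than in control hearts at 0 hpa (limma, adjusted p = 0.00051).

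The gene clu was high only at 7 dpa. Its log2 intensity was 4.29 and 4.09 on the 2 arrays of Control 0 hpa, 2.98 and 2.91 at Control 6 hpa, and 8.27 and 8.27 at Control 7 dpa. With TCDD it was 3.17 and 4.64 at 0 hpa, 3.05 and 3.33 at 6 hpa, and 7.48 and 7.95 at 7 dpa. All 4 arrays at 7 dpa lay far above the other 8, and the 2 unamputated TCDD arrays lay farthest apart of any pair. From high to low, the group means (± SD, n = 2) were 8.27 ± 0.0047 at Control 7 dpa, 7.72 ± 0.33 at TCDD 7 dpa, 4.19 ± 0.14 at Control 0 hpa, 3.91 ± 1.04 at TCDD 0 hpa, 3.19 ± 0.20 at TCDD 6 hpa and 2.94 ± 0.05 at Control 6 hpa. Control 0 hpa and TCDD 0 hpa overlapped, as did TCDD 0 hpa and TCDD 6 hpa. At 6 hpa the gene lay at the percentiles 29.0 to 49.5 of its array, below the median. The files carry no detection calls, so whether such a level exceeds background is unknown, and a rise that starts from it may be understated.

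The gene mdka was also highest at 7 dpa. Its log2 intensity was 5.27 and 5.69 at Control 0 hpa, 5.42 and 5.16 at Control 6 hpa, and 9.25 and 9.38 at Control 7 dpa. In TCDD hearts it was 5.59 and 5.77 at 0 hpa, 4.45 and 5.20 at 6 hpa, and 9.64 and 9.64 at 7 dpa. The 4 arrays at 7 dpa again lay above all others, here with both TCDD arrays above both controls. Group means (± SD, n = 2) ran from 9.64 ± 0.0032 at TCDD 7 dpa and 9.32 ± 0.10 at Control 7 dpa to 5.68 ± 0.12 at TCDD 0 hpa, 5.48 ± 0.30 at Control 0 hpa, 5.29 ± 0.18 at Control 6 hpa and 4.83 ± 0.53 at TCDD 6 hpa. Each of the lower 4 groups overlapped its neighbour in that order. The probe set stayed above the array median throughout, at percentiles 75.3 to 84.2 before 7 dpa and 97.9 to 98.5 at 7 dpa.

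The gene tgm2b also peaked at 7 dpa. Its log2 intensity was 5.88 and 5.27 at Control 0 hpa, 5.07 and 4.19 at Control 6 hpa, and 8.40 and 8.65 at Control 7 dpa. The TCDD arrays read 5.29 and 4.96 at 0 hpa, 4.05 and 4.05 at 6 hpa, and 7.60 and 7.63 at 7 dpa. The arrays at 7 dpa were the highest 4, with both TCDD arrays below both controls, and the TCDD arrays at 6 hpa were the lowest. Group means (± SD, n = 2) were 8.53 ± 0.17 at Control 7 dpa, 7.62 ± 0.02 at TCDD 7 dpa, 5.57 ± 0.43 at Control 0 hpa, 5.12 ± 0.24 at TCDD 0 hpa, 4.63 ± 0.63 at Control 6 hpa and 4.05 ± 0.0014 at TCDD 6 hpa. Control 0 hpa overlapped TCDD 0 hpa, which overlapped Control 6 hpa. This probe set was above the array median on all 12 arrays, at percentile 66.2 or higher.

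**Figure D1:**
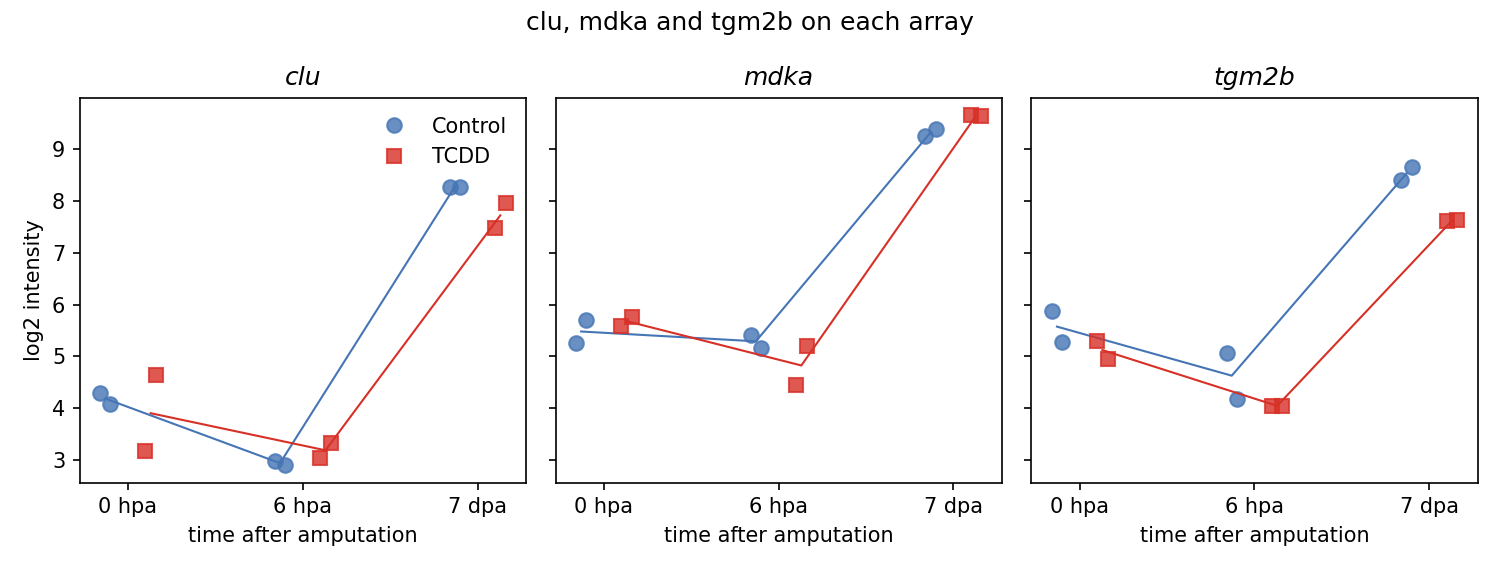
Log2 intensity (y axis) of clu, mdka and tgm2b at 0 hpa, 6 hpa and 7 dpa (x axis); each point is 1 array, circles are controls, squares are TCDD and lines join group means. All 4 arrays at 7 dpa lie above the other 8 for each gene, from 7.48 upwards for clu, 9.25 for mdka and 7.60 for tgm2b.

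In control hearts, the comparison that chose the genes, clu was 16.9-fold higher at 7 dpa than at 0 hpa, mdka 14.3-fold and tgm2b 7.73-fold. Of the 15502 probe sets, 1.65% were called higher there, and by size of rise clu ranked 10, mdka 16 and tgm2b 58. From 6 hpa to 7 dpa in controls the values were 40.1-fold for clu, 16.3-fold for mdka and 14.9-fold for tgm2b, with 2.84% of all probe sets called higher. Nothing is read from either comparison for the 3 genes.

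The TCDD arrays were not in the contrast that chose the genes, so the same measure was tested there, although earlier results of all arrays were known when the genes were proposed. All 3 genes rose from TCDD 0 hpa to TCDD 7 dpa, against a background of 1.97% of all probe sets called higher (305 of 15502) and 20.9% with both 7 dpa arrays above both 0 hpa arrays. The rise of clu was 3.81 ± 0.40 log2 units (± SE, n = 2 against 2; limma, adjusted p = 0.0019), with a 95% interval of 2.91 to 4.71. For mdka it was 3.96 ± 0.26 (15.5-fold, interval 3.38 to 4.54, limma adjusted p = 0.000166). For tgm2b it was 2.49 ± 0.30 (5.63-fold, interval 1.80 to 3.18, limma adjusted p = 0.00383). By size of rise they ranked 46, 39 and 128 among the 15502 probe sets.

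The clu rise depended on which unamputated TCDD array was kept: it was 3.07 without replicate 1, 4.55 without replicate 2, and 2.82 on the log2(intensity + 16) scale, each of them called. The tgm2b rise was 2.33 without TCDD 0 hpa replicate 2 and just missed the threshold (limma, adjusted p = 0.0501). A fit with the shift of the epidermal markers as a covariate, added after the data were seen, ended the calls of clu (3.59, adjusted p = 0.113) and tgm2b (2.097, adjusted p = 0.19) and kept that of mdka (3.87, adjusted p = 0.0228). That shift was -0.13 and -0.23 on the TCDD 0 hpa arrays and 1.93 and 3.06 at TCDD 7 dpa. The covariate thus follows the comparison, and this fit cannot separate them. The part of epidermal tissue in these rises was not tested.

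From 6 hpa to the same 7 dpa arrays in TCDD hearts all 3 genes rose too, with 4.32% of all probe sets called higher. Both later arrays lay above both earlier ones in 22.1%. The difference was 4.52 ± 0.40 for clu (23.0-fold, adjusted p = 0.000512), 4.81 ± 0.26 for mdka (28.1-fold, adjusted p = 5.2e-05) and 3.57 ± 0.30 for tgm2b (11.9-fold, adjusted p = 0.000409, limma). These calls held under all 21 alternative settings. On the log2(intensity + 16) scale, which shrinks changes from low levels, the values were 3.17, 4.18 and 2.70.

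At 6 hpa none of the 3 genes passed the test, and their estimates lay at or below the unamputated level. In controls, clu differed by -1.24 ± 0.40 log2 units from 0 hpa (95% interval -2.15 to -0.34, unadjusted p = 0.0125, adjusted p = 0.27), and tgm2b by -0.95 ± 0.30 (interval -1.63 to -0.26, unadjusted p = 0.0127, adjusted p = 0.273). Both genes lay lower on both 6 hpa arrays than on either 0 hpa array, as did 22.1% of all probe sets, and 0.477% were called in either direction. The estimate for mdka was -0.19 ± 0.26 (interval -0.77 to 0.39), with overlapping arrays. The Control 0 hpa arrays were part of the comparison that chose the genes, so these estimates and p-values may be biased by that choice.

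With TCDD the 6 hpa estimates were -0.71 ± 0.40 for clu (95% interval -1.62 to 0.19, adjusted p = 0.40), -0.85 ± 0.26 for mdka (-1.43 to -0.28, adjusted p = 0.127) and -1.07 ± 0.30 for tgm2b (-1.76 to -0.39, adjusted p = 0.115). The arrays of mdka and tgm2b did not overlap, against 20.8% of all probe sets that lay lower on both 6 hpa arrays and 1.88% called in either direction. One array decided the mdka result. Without TCDD 6 hpa replicate 2 the mdka difference was -1.23 and was called, as were many more probe sets than in the main fit. The group then rests on the 1 array that stood apart, with the highest actin difference, and takes its spread from the other groups. The clu estimate was 0.021 without TCDD 0 hpa replicate 2. The difference between the 6 hpa responses of TCDD and control hearts was 0.53 ± 0.56 for clu, -0.66 ± 0.36 for mdka and -0.13 ± 0.43 for tgm2b, none called, with 0.00645% of all probe sets called. This difference uses the Control 0 hpa arrays, which shared in the choice of the genes, and may be biased by it.

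The authors' deposited tables compare a group with a class named the rest, whose arrays are not stated. For TCDD 6 hpa the folds equal those against the mean of the authors' Control 0 hpa and Control 6 hpa class means. They are thus no comparison with TCDD 0 hpa. At TCDD 6 hpa the authors' deposited table has mdka 1.61-fold and tgm2b 2.13-fold lower than the rest, both with a Benjamini-Hochberg value of 0.0352, and clu 1.32-fold lower with 0.93. In the authors' deposited table for TCDD 7 dpa, mdka is 4.26-fold higher with a permutation p of 0.0439 and 0.518 after adjustment.

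TCDD and control hearts did not differ at the test's threshold for any of the 3 genes at any time. Without amputation the difference, TCDD minus control, was -0.28 ± 0.40 log2 units for clu (95% interval -1.19 to 0.62), 0.20 ± 0.26 for mdka (-0.38 to 0.78) and -0.45 ± 0.30 for tgm2b (-1.14 to 0.24). The arrays of all 3 genes overlapped, and 0.0258% of all probe sets were called. Since the Control 0 hpa arrays shared in the choice of the genes, these differences may be biased by it. The signs for clu and mdka rested on 1 array each: clu was 0.45 without TCDD 0 hpa replicate 1, and mdka was -0.012 without Control 0 hpa replicate 1.

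At 6 hpa the difference was 0.25 ± 0.40 for clu (interval -0.66 to 1.15), -0.46 ± 0.26 for mdka (-1.04 to 0.11) and -0.58 ± 0.30 for tgm2b (-1.27 to 0.11), with 0.0129% of all probe sets called. Both TCDD arrays lay above both controls for clu, as for 11.1% of probe sets, and below them for tgm2b, as for 9.19%. These intervals leave room for differences of more than 1 log2 unit in clu upwards and in mdka and tgm2b downwards.

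At 7 dpa the arrays of the treatments did not overlap for any of the 3 genes, yet none was called, with 0.116% of all probe sets called. The difference, TCDD minus control, was -0.91 ± 0.30 for tgm2b (95% interval -1.60 to -0.22, unadjusted p = 0.0153, limma adjusted p = 0.832). The estimate for clu was -0.55 ± 0.40 (interval -1.45 to 0.35), and that for mdka was 0.32 ± 0.26 (interval -0.26 to 0.90). Both TCDD arrays lay below both controls in 11.3% of all probe sets and above them in 13.3%. Since the control arrays at 7 dpa chose the genes, these differences are pulled downwards. The 7 dpa response itself differed between the treatments by -0.27 ± 0.56 for clu (-1.55 to 1.01), 0.12 ± 0.36 for mdka (-0.70 to 0.94) and -0.46 ± 0.43 for tgm2b (-1.43 to 0.52), none called, with 0.00645% of probe sets called.

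**Figure D2:**
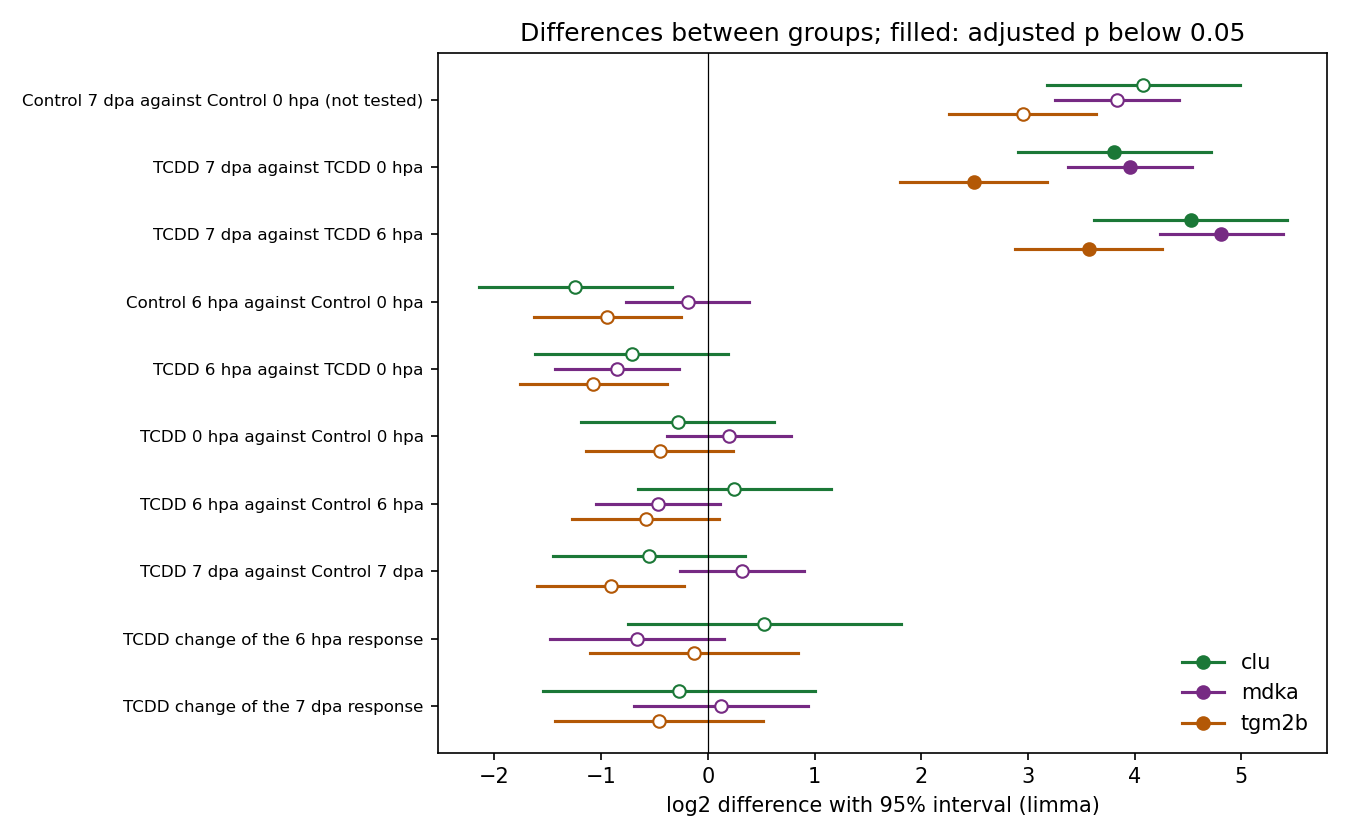
Log2 differences (x axis) of clu, mdka and tgm2b in 10 comparisons (rows), with 95% limma intervals as bars and filled points where the adjusted p was below 0.05. The filled points are those of TCDD 7 dpa against TCDD 0 hpa and against TCDD 6 hpa, from 2.49 to 4.81; the control comparison at 7 dpa chose the genes and is drawn open, untested.

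Of the other measured genes of the midkine pathway, 1 rose in TCDD hearts from 0 hpa to 7 dpa and 2 rose from 6 hpa to 7 dpa. Of 26 listed genes for midkine, its paralogs and receptors, 9 besides mdka had a named probe set, and their median change from TCDD 0 hpa to TCDD 7 dpa was 0.04 log2 units, beside -0.02 for all probe sets. The paralog mdkb changed by -0.24 ± 0.35 (adjusted p = 0.941), with 3.95 to 5.12 on all 12 arrays. Of the receptors, itga6b, an integrin alpha subunit, rose by 0.86 ± 0.16 (limma, adjusted p = 0.0282), a call lost in 10 of 20 alternatives. Its levels, 2.25 to 3.30 on the 12 arrays, were dim and may not exceed background. The syndecan sdc4 had 0.92 ± 0.38 (adjusted p = 0.353) and the scavenger receptor gene lrp1aa 0.85 ± 0.48 (adjusted p = 0.578). From TCDD 6 hpa to TCDD 7 dpa itga6b and lrp1aa were called higher, calls lost in 8 of 20 and 12 of 21 alternatives. Over all probe sets 4.32% were called higher there, and 1.97% from TCDD 0 hpa to TCDD 7 dpa. In controls 1 of the 9 rose from 6 hpa to 7 dpa, beside 2.84% of all probe sets. From 0 hpa to 7 dpa in controls 0 of the 9 passed limma's test, 1 at an unadjusted p below 0.05, against 1938 of all 15502 probe sets. The control levels of sdc4 were 6.46 and 6.64 at 0 hpa, 8.93 and 8.25 at 6 hpa and 8.33 and 7.50 at 7 dpa. The paralog ptn is not analysed here.

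The 9 measured of 19 listed genes for clusterin's receptors and the terminal complement had a median change of 0.06 from TCDD 0 hpa to TCDD 7 dpa. By limma 0 were called and 0 were at an unadjusted p below 0.05, against 1948 of all 15502 probe sets at that level. On each array only 3 or 4 of the 9 lay above the array median, so a change in the others may not be measurable. The receptor vldlr had -0.25 ± 0.34 (adjusted p = 0.931), and c6.2, matched to complement component C6, had 0.50 ± 0.61 (adjusted p = 0.915). From TCDD 6 hpa to TCDD 7 dpa c6.2 rose by 3.12 ± 0.61 (limma, adjusted p = 0.021), a call lost in 6 of 21 alternatives. The other 8 genes did not pass there.

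Several matrix substrates of transglutaminase rose at 7 dpa, as tgm2b did. Of 29 listed transglutaminases, substrates and receptors, 15 besides tgm2b were measured. From TCDD 0 hpa to TCDD 7 dpa, where 1.97% of all probe sets were called higher, 5 of them rose (median 0.23). They were the fibronectins fn1a, by 4.35 ± 0.23 (adjusted p = 0.000119), and fn1b, by 2.82 ± 0.43 (adjusted p = 0.0124), the type I collagen genes col1a1a and col1a2, by 2.85 ± 0.36 and 2.86 ± 0.32 (adjusted p = 0.00467 and 0.0023), and sparc, a collagen-binding matrix protein, by 2.61 ± 0.33 (adjusted p = 0.0048). With the epidermal covariate the rises of col1a1a, col1a2, fn1b and sparc were 1.97, 2.02, 2.55 and 2.07 and were no longer called (adjusted p = 0.251, 0.171, 0.27 and 0.227), while fn1a kept its call. The limit of that covariate given above applies here too. The fibrinogen genes fga, fgb and fgg, whose product transglutaminases cross-link in clots, had changes between -0.06 and 0.23, none called. Their mean log2 intensities over all arrays were 2.64, 2.84 and 2.74, below the array medians, so a change in them may not be measurable. The paralogs tgm2a and tgm2l are not analysed here.

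In controls 5 genes of that list rose as well at 7 dpa (median 0.58): fn1a by 4.13, col1a2 by 2.95, col1a1a by 2.90, sparc by 2.27 and f13a1b, the A subunit of coagulation factor XIII and itself a transglutaminase, by 1.66 ± 0.19 (adjusted p = 0.00415). From 0 hpa to 7 dpa in controls, 1.65% of all probe sets were called higher. The log2 intensity of f13a1b was 8.84 and 8.38 at Control 7 dpa and 7.27 and 7.06 at TCDD 7 dpa. It was lower with TCDD by -1.45 ± 0.19 (limma, adjusted p = 0.04), a call lost in 17 of 21 alternatives. At 6 hpa 2 genes fell in controls and 3 fell with TCDD: col1a2 by 2.55 and col1a1a by 2.44 in controls, and col1a1a by 2.39, col1a2 by 2.37 and sparc by 2.29 with TCDD. Those falls were not called in 5 to 11 of 21 alternatives each. The estimates of tgm2b at 6 hpa, -0.95 and -1.07, had the same sign.

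**Figure D3:**
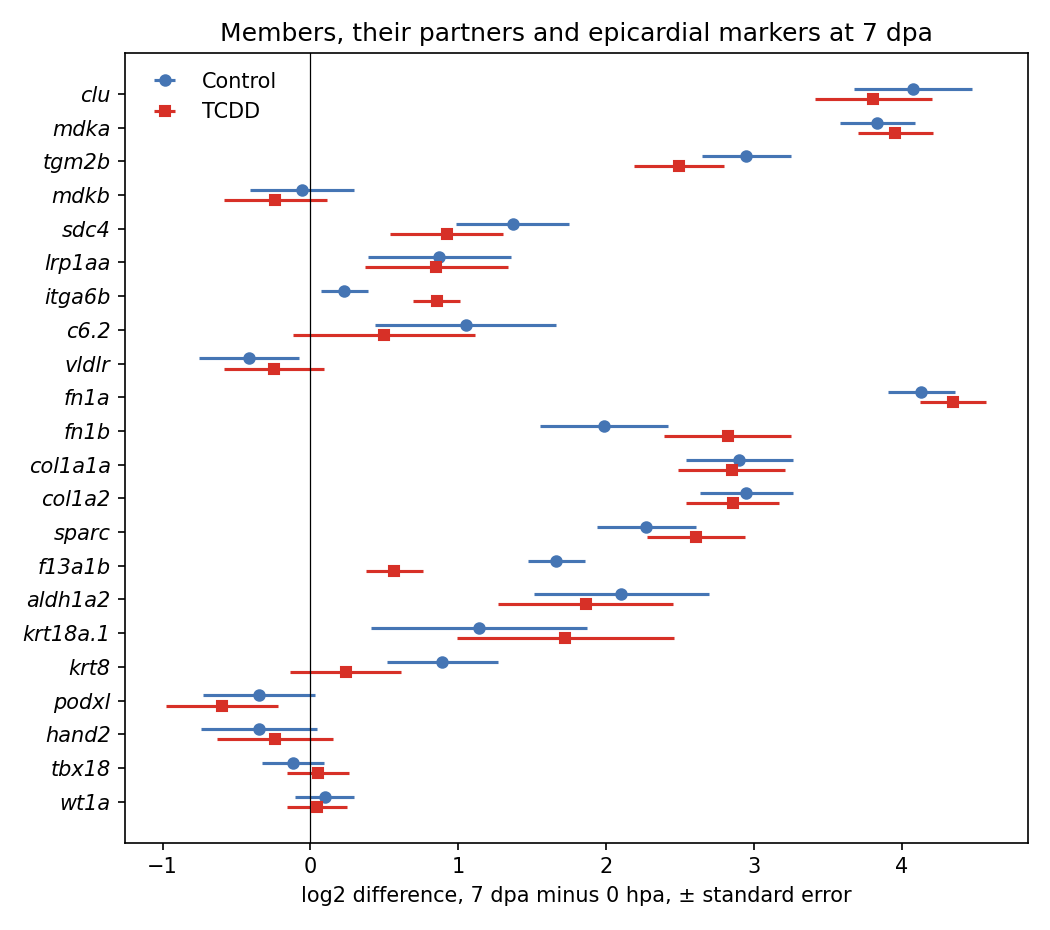
Log2 difference between 7 dpa and 0 hpa (x axis, bars are ± SE) of clu, mdka and tgm2b, of genes listed as their partners and of epicardial markers (rows), with circles for controls and squares for TCDD. The fibronectin and collagen genes lie between 1.99 and 4.35, whereas mdkb and the dim markers tbx18 and wt1a lie between -0.24 and 0.10. The other epicardial markers drawn lie with TCDD between -0.60 (podxl) and 1.86 (aldh1a2), with krt18a.1 at 1.73.

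The 3 genes were brought together as epicardial injury genes, so general epicardial markers were read beside them. Of 16 listed markers 9 were measured, and 0 passed limma's test at 7 dpa in controls (median 0.10) or with TCDD (median 0.05). In each, 2 were at an unadjusted p below 0.05, as were 1938 and 1948 of all 15502 probe sets. From 6 hpa to 7 dpa the median was 0.64 in controls, with 0 called and 3 at an unadjusted p below 0.05. With TCDD it was 1.52, with 6 at that level. Over all probe sets 2251 in controls and 3471 with TCDD were at that level. Of the 6 markers, podxl, a surface sialomucin, was called with TCDD (1.75 ± 0.38, limma adjusted p = 0.0319), a call lost in 12 of 21 alternatives. The transcription factor genes tbx18 and wt1a stayed at 2.77 to 3.34 and 2.56 to 3.15 on all 12 arrays. These levels are near or below the array median, so a change in them may not be measurable. The gene aldh1a2, which encodes the retinoic acid synthesis enzyme of the activated epicardium, was 6.35 and 7.65 at Control 0 hpa, 8.49 and 8.43 at Control 6 hpa and 9.05 and 9.16 at Control 7 dpa. With TCDD it was 7.91 and 6.77 at 0 hpa, 6.02 and 7.70 at 6 hpa, and 9.06 and 9.35 at 7 dpa. Its 7 dpa arrays were the highest 4, but the differences of 2.103 ± 0.59 and 1.86 ± 0.59 did not pass (limma, adjusted p = 0.135 and 0.189). The brightest markers of the list changed from TCDD 0 hpa to TCDD 7 dpa by 1.73 ± 0.73 for krt18a.1 and 0.24 ± 0.38 for krt8. The changes were 0.47 ± 0.43 for cav1, -0.60 ± 0.38 for podxl and -0.24 ± 0.39 for hand2, and none of these was called. At TCDD 6 hpa podxl fell by 2.35 ± 0.38 (adjusted p = 0.0289), a call lost in 9 of 21 alternatives. The summed intensity of the 9 markers was 3316 to 3691 at Control 0 hpa and 5160 to 5708 at Control 7 dpa, and 3413 to 4233 and 5567 to 6288 with TCDD. On this linear scale the brightest genes weigh most, such as krt8 and krt18a.1 (mean log2 10.27 and 9.59 over all arrays). The sum thus does not speak for the whole list. Since no epicardial marker passed the test at 7 dpa against 0 hpa, the 3 genes are called by name here. With 9 of 16 markers measured and 2 arrays in a group, this does not show that epicardial markers were unchanged.

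Markers of other cells moved with the 3 genes. Of 23 listed fibroblast and matrix markers 18 were measured; 5 of the genes named above are among them. Of the 18, 13 rose from TCDD 0 hpa to TCDD 7 dpa (median 2.54) and 13 in controls (median 2.28), with 0 falling in either. Over all probe sets 1.97% were called higher with TCDD and 1.65% in controls. The summed intensity of the 18 was 741 to 827 at TCDD 0 hpa and 4654 to 5179 at TCDD 7 dpa. In controls it was 961 to 1319 and 6353 to 6900. Periostin (postnb), a matrix protein of wounds, rose by 4.64 ± 0.40 with TCDD (adjusted p = 0.000727). At 6 hpa 3 of the 18 fell in controls and 4 with TCDD, with summed intensities of 415 to 478 and 289 to 357. The part of this cell type in the results of clu, mdka and tgm2b was not tested.

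At 6 hpa other lists moved beside the lower estimates of the 3 genes. Of 9 measured erythrocyte markers 6 rose with TCDD (median 2.90). In controls 0 were called by limma, with 8 at an unadjusted p below 0.05 (median 2.49). Over all 15502 probe sets 72 were called higher with TCDD and 25 in controls. The summed intensity of the 9 was 14443 to 19945 at Control 6 hpa and 15727 to 20228 at TCDD 6 hpa. On the other 8 arrays it was 6678 to 10734. From 6 hpa to 7 dpa with TCDD, 5 of the 9 fell and 1 rose (median -1.95). Those that fell were epb41b, hbaa1, hbba2, klf1 and tal1. The carbonic anhydrase gene ca2 rose by 5.96 ± 0.22 (limma, adjusted p = 1.16e-05). Over all probe sets 211 were called lower and 670 higher there. The 11 cardiomyocyte markers had medians of -0.45 in controls and -1.08 with TCDD at 6 hpa, 0 called and 2 and 9 at an unadjusted p below 0.05. Of all 15502 probe sets, 1587 in controls and 2659 with TCDD were at that level at 6 hpa. Called lower were 49 in controls and 219 with TCDD. For the 6 endothelial and endocardial markers the medians were -0.72, with erg called (-1.52 ± 0.23, limma adjusted p = 0.0393), and -0.80, with 0 called and 4 at an unadjusted p below 0.05. These genes were named after their values were seen, and the part of these cells in the results was not tested.

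Macrophage and neutrophil markers were higher at 7 dpa too. Of 20 listed, 13 were measured. At 7 dpa 1.65% of all probe sets were called higher than at 0 hpa in controls and 1.97% with TCDD. Of the 13, 6 rose in controls (median 3.09) and 2 with TCDD (median 1.56). Among them ctss2.2, a cathepsin gene of macrophages, rose by 4.04 ± 0.47 in controls and 2.24 ± 0.47 with TCDD (adjusted p = 0.00407 and 0.0453). The neutrophil genes lyz and mpx did not pass in either. The summed intensity of all 13 markers was 775 to 800 at Control 0 hpa and 4536 to 7868 at Control 7 dpa, and 846 to 1437 and 2188 to 3033 with TCDD. The part of macrophages and neutrophils in the results was not tested. Of the 11 cardiomyocyte markers, 2 fell at 7 dpa with TCDD (median -0.48) and 3 in controls (median -0.66): casq2 and ckmt2a in both and ttn.2 in controls. Of all probe sets, 0.4% were called lower at 7 dpa with TCDD and 0.348% in controls.

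Epidermal genes were high on 3 of the 4 arrays at 7 dpa. Of 19 listed markers 17 were measured. Over all probe sets 1.97% were called higher from TCDD 0 hpa to TCDD 7 dpa and 1.65% in controls. Of the 17, 10 rose with TCDD (median 2.92). In controls 1 of the 17 rose (list median 0.94), the keratin gene krt4, by 2.42 ± 0.42 (limma, adjusted p = 0.0255). The summed intensity of the 17 was 7218 to 7706 at TCDD 7 dpa, against 265 to 277 at TCDD 0 hpa. In controls it was 1770 to 4252 at 7 dpa against 598 to 755 at 0 hpa. The gene krt5, a keratin of basal epidermis, was 2.67 and 9.60 on the 2 arrays of Control 7 dpa and 10.62 and 10.47 at TCDD 7 dpa. On Control 7 dpa replicate 1 krt5 was no higher than without amputation, but the summed epidermal intensity was 1770. There clu, mdka and tgm2b were at 8.27, 9.25 and 8.40, beside 8.27, 9.38 and 8.65 on replicate 2. Both arrays shared in the choice of the genes. The part of epidermal tissue in these levels was not tested.

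**Figure D4:**
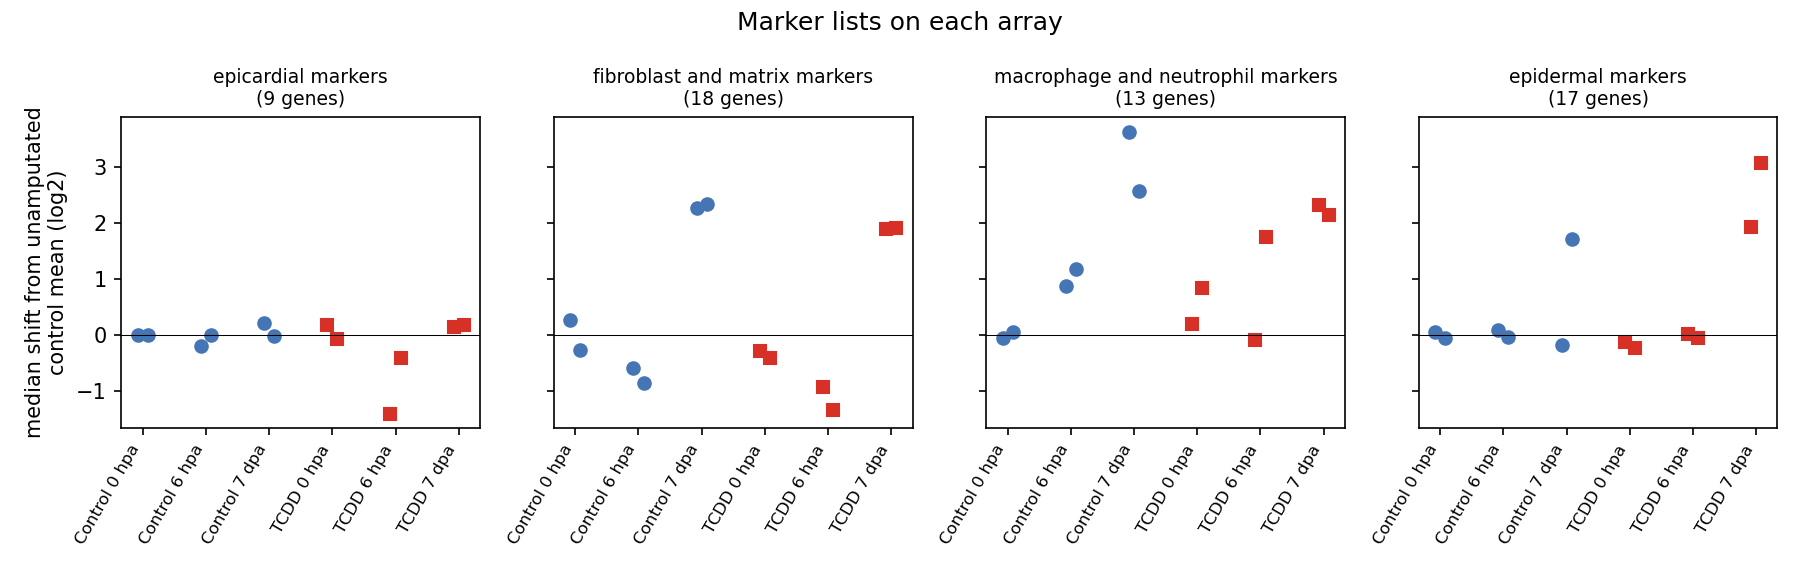
Median shift of 4 marker lists from their mean in unamputated controls (y axis, log2) on each of the 12 arrays (points, grouped on the x axis; circles are controls, squares TCDD). Fibroblast and matrix markers are raised on all 4 arrays at 7 dpa, epidermal markers on 3 of them with shifts of 1.71 to 3.06 and -0.18 on Control 7 dpa replicate 1, and epicardial markers lie between -0.02 and 0.21 at 7 dpa.

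Across the 12 arrays the 3 genes ran close together, with a Pearson r of 0.97 between clu and mdka, 0.958 between clu and tgm2b and 0.944 between mdka and tgm2b. The genes were chosen for their rise at 7 dpa in controls, so a high r over the 12 arrays was built into the choice. The points share arrays and the step at 7 dpa, and over the 8 arrays at 0 and 6 hpa r was 0.531, 0.564 and 0.601. These values are descriptions without a test.

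The pattern of each gene was set beside 2542 probe sets that varied over the arrays and had 1 symbol, clone names left out. Of these, 124 had an r over 0.9 with clu, 155 with mdka and 95 with tgm2b, so a high r was common. The 5 most similar genes among these were then found for each. For tgm2b they were tfpia, an inhibitor of the clotting cascade (r = 0.99, and 0.947 over the 8 arrays at 0 and 6 hpa), postnb (0.985 and 0.921), col1a2 (0.984 and 0.89), col5a2a, a type V collagen gene (0.981 and 0.882), and aebp1b (0.981 and 0.911). Here the likeness extended to the 8 earlier arrays, with r of at least 0.882. For clu they were rrm2l, a ribonucleotide reductase gene (0.986 and 0.901), postnb (0.984 and 0.71), the secreted Dickkopf-family gene dkk3b (0.98 and 0.701), plxdc2b (0.978 and 0.834) and txndc5, a protein disulfide isomerase of the endoplasmic reticulum (0.977 and 0.941).

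For mdka 4 are given: the dipeptidase gene cndp2 (0.988 and 0.787), arpc5b, an actin-nucleating Arp complex subunit (0.984 and 0.684), gpd1c, a glycerol-3-phosphate dehydrogenase gene (0.982 and 0.423), and postnb through another probe set (0.978 and 0.653). The likeness of gpd1c to mdka lay mostly in the step at 7 dpa. Of the genes listed, postnb was common to all 3. The TCDD minus control difference at 7 dpa was -0.91 for tgm2b. Among its similar genes the difference was -0.32 for tfpia and -0.66 for the postnb probe set shared with clu. It was -0.60 for col1a2 on the listed probe set, -0.29 for col5a2a and -1.90 for aebp1b. For mdka the difference was 0.32, and it was 0.17, 0.46, -0.08 and -0.43 for cndp2, gpd1c, arpc5b and the other postnb probe set. Those are values without a test, and the genes were picked over the same arrays.

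**Figure D5:**
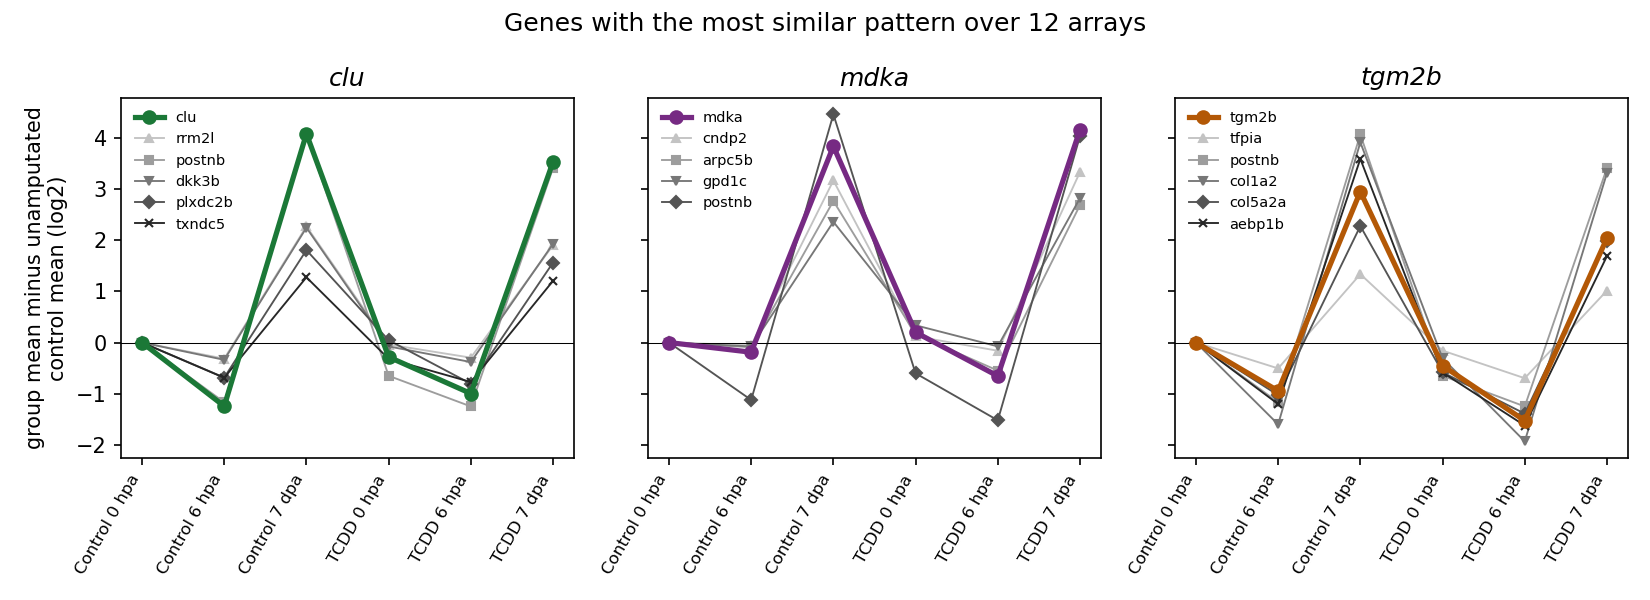
Group means minus the mean of unamputated controls (y axis, log2) in the 6 groups (x axis) for clu, mdka and tgm2b (thick coloured lines) and the genes most like each (thin grey lines; 5 for clu and tgm2b, 4 for mdka). All lines step up at both 7 dpa groups, and most dip at 6 hpa, with postnb at -1.17 and col1a2 at -1.60 in controls.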

How the data were processed

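RNA of 12 pools was measured on Affymetrix zebrafish arrays. The deposited values are intensities per probe set on a linear scale, summarised by RMA (per the submitters' processing notes); its version is not given in the sources used here. Log2 was taken of the deposited intensities. The authors' deposited comparison tables hold a score (a t statistic), a permutation p-value with its Benjamini-Hochberg adjustment, and a fold, the ratio of class means.

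After 115 control probe sets were removed, 15502 were fitted with 6 group means in limma 3.58.1 (R 4.3.3), with 6 residual degrees of freedom to which eBayes added 2.87. Benjamini-Hochberg adjustment ran over all 15502 probe sets within each of 12 comparisons, and calls were at adjusted p below 0.05. For the 3 genes 10 of them were tested, 1 added after the data were seen, and 2 described. Gene symbols came from GEO's platform annotation, updated through a RefSeq gene table: 10795 probe sets had 1 symbol, 135 several and 4572 none. The leading probe set of a gene was the one with the highest mean. Similar genes were the 5 with the highest Pearson r among probe sets with 1 symbol and an SD of at least 0.5. Clone names were left out by the first letters of the symbol, which can also leave out some named genes. Of those for mdka, 1 is not reported here. Of each list, the rule was to name up to 6 genes, called ones first and then the brightest, and paralogs whatever their result. It was not followed throughout: for example, aldh1a2, tbx18, wt1a, fga, fgb and fgg were named outside it. The members and lists were chosen with earlier results of these data known. An exact permutation of 2 against 2 arrays cannot go below p = 0.333, so none was used. Precision is limited by the number of arrays. The fit was tested on simulated data.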

Additional observations from a re-analysis of the deposited data

Results flagged for a closer look

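For clu the estimated TCDD minus control differences had opposite signs at the 2 times after amputation. At 6 hpa the estimate was 0.25, positive on every pair of arrays, as for 11.1% of all probe sets. There clu lay below the array median, at a level that may not exceed background. At 7 dpa it was -0.55, negative on every pair, as for 11.3% of all probe sets. Neither difference was called, and the limma intervals ran from -0.66 to 1.15 and from -1.45 to 0.35. The difference between these differences was -0.80 log2 units, and the test of it, added after the data were seen, gave a limma adjusted p of 0.998, with 0.0129% of all probe sets called.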

How the results depend on the processing

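For 3 genes in 9 comparisons, 21 alternatives gave 567 values: 553 kept their direction and side of the threshold, 3 lost a call, 1 gained one and 10 changed sign, all 10 without a call and with 1 array left out; the causes were not tested. The lost calls were TCDD 7 dpa against TCDD 0 hpa with the epidermal covariate (clu 3.59, tgm2b 2.097) and tgm2b without TCDD 0 hpa replicate 2 (leave-one-out range 2.33 to 2.66). The gained call was mdka in TCDD 6 hpa against TCDD 0 hpa without TCDD 6 hpa replicate 2 (-1.23 to -0.48). Many more probe sets were called in that setting than in the main fit. Leave-one-out ranges that crossed 0 were -0.40 to 0.023 for mdka in Control 6 hpa against Control 0 hpa, -1.45 to 0.021 for clu in TCDD 6 hpa against TCDD 0 hpa, and, for TCDD minus control at 0 hpa, -1.02 to 0.45 for clu and -0.012 to 0.41 for mdka. They were -0.21 to 1.27 for clu and -0.57 to 0.31 for tgm2b in the TCDD change of the 6 hpa response (tgm2b 0.18, 0.31 and 0.04 without Control 0 hpa replicate 2, Control 6 hpa replicate 1 and TCDD 0 hpa replicate 1), and -1.01 to 0.47 for clu and -0.090 to 0.33 for mdka in that of the 7 dpa response. The tgm2b difference of TCDD effects between 7 dpa and 6 hpa ran from -0.77 to 0.11 and was above 0 without Control 6 hpa replicate 2.

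The replicate numbers share no label of litter, batch or day, and were not taken as pairs: the correlation of replicate 1 deviations ran from -0.38 to 0.56 over 15 pairs of groups, 8 of them above 0.1. Actin 3′ minus 5′ was higher on replicate 1 in all 6 groups. The mean of the BioB spike-in probe sets was 8.01 and 9.46 on replicate 2 of Control 7 dpa and TCDD 7 dpa, and 5.35 to 6.68 elsewhere. Between the groups at 7 dpa r was 0.56, and between 0 hpa and 7 dpa groups it was -0.24 to -0.19. With the replicate number as a block common to all times, no call of the 3 genes changed. In TCDD 7 dpa against TCDD 0 hpa, limma adjusted p was 0.00257 for clu, 0.000588 for mdka and 0.00438 for tgm2b. Such a block cannot take up replicate differences that reverse between times, so pairing within a time is not settled. Calls over all probe sets moved more. In TCDD 7 dpa against TCDD 0 hpa, 367 were called, 168 with the epidermal covariate, 602 with array weights, and 101 to 683 with 1 array left out. In TCDD 7 dpa against TCDD 6 hpa the count was 881, against 148 to 1167 and 251 to 3002. For TCDD 6 hpa against TCDD 0 hpa it was 291, against 0 to 514 and 0 to 2424, and for Control 6 hpa against Control 0 hpa 74, against 22 to 566 and 2 to 309. Levels near the array median limit what can be seen of clu before 7 dpa.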

Other observations

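The difference between the log2 intensities of mdka and tgm2b on the same array, which says nothing of which is more abundant, was 0.85 and 0.74 at Control 7 dpa and 2.04 and 2.01 at TCDD 7 dpa. On the 8 arrays at 0 and 6 hpa it ranged from -0.61 to 1.15. This difference was noticed in the data and was not tested.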
